A study of Mus musculus with 9 samples.

Results

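The nuclear genes for subunits of respiratory complexes III, IV and V were taken as the protein-coding genes whose symbols start with Uqcr (complex III), with Cox4, Cox5, Cox6, Cox7 or Cox8 (complex IV) or with Atp5 (complex V). This rule, which rests on names and gene types and on no measured value, gave 42 of the 55487 genes in the count table, of which 8 belong to complex III, 17 to complex IV and 17 to complex V. The set was chosen with earlier results of these data known, so counts of calls among its genes are descriptive. A further 12 symbols with these beginnings are annotated as pseudogenes and were left out, whereas Cox5b-ps, whose name marks it as a copy of Cox5b, is annotated as protein-coding and was kept. Polyadenylated RNA was sequenced from whole gastrocnemius, a calf muscle, of wild-type C57BL/6 mice that the labels call male. The 4 Control libraries came from mice in ordinary cages, the 2 Unloading libraries from mice after 10 days of hindlimb unloading, in which a line on the tail keeps the hind legs off the ground, and the 3 Reloading libraries from mice that had walked normally again for 1 day after the same unloading. No group carried an altered allele or received a drug, the labels give no age, and the methods of the study name female mice for the unloading procedure. The sources do not say that each library was a separate mouse, so the p-values measure the spread between these libraries, which may be technical. In RNA of whole muscle, fewer cells of a type and less RNA per cell cannot be told apart.

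Complex III passes electrons from ubiquinol to cytochrome c, complex IV (cytochrome c oxidase) passes them on to oxygen, and complex V is the ATP synthase, which uses the proton gradient that the respiratory chain builds to make ATP. Each of these complexes is put together from a few proteins encoded by mitochondrial DNA and many encoded in the nucleus, and skeletal muscle, above all its oxidative fibres, holds large amounts of them. Several complex IV subunits exist in a form that is found mainly in heart and skeletal muscle (Cox6a2, Cox7a1, Cox8b) and a form found in most tissues (Cox6a1, Cox7a2, Cox8a).

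The libraries held between 9252443 and 19612101 read pairs in genes, and each of the 42 genes had enough of them to enter the test, which covered 14851 genes in all. Values are given as read pairs per 1000000 (CPM) after TMM scaling (trimmed mean of M-values), in the order of the library numbers. TMM factors were 0.928 to 0.960 in the Control and Unloading libraries and 1.11 to 1.13 in the Reloading libraries, so that scaling to library totals only moved the middle log2 fold change among tested genes by 0.25 for Reloading against Unloading, by 0.24 for Reloading against Control and by -0.01 for Unloading against Control. Muscle markers (Acta1, Ckm, Mylpf, Myh4 and Tnnt3) summed to 140062 to 153210 CPM in Control, 140095 to 146097 CPM in Unloading and 99777 to 110611 CPM in Reloading, so that Reloading lay below both other groups. Within this sum Acta1 had a mean of 28117 CPM in Control and 17524 CPM in Unloading. The means of Ckm, Mylpf, Myh4 and Tnnt3 were higher in Unloading than in Control. Control 2 and Reloading 1 held skin transcripts, with 5 keratin genes and the loricrin gene Lor at 290.8 and 132 summed CPM against at most 4.2 CPM in the other 7 libraries. Unloading 1 was lower than Unloading 2 in 39 of the 42 genes, with a median log2 difference of -0.20 against 0.002 over all tested genes.

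Levels between genes are given as CPM divided by the counter's gene length in kilobases (RPKM). The muscle forms Cox8b and Cox6a2 had the highest RPKM of the 42 genes in Control muscle, at 1103 ± 28.5 and 945 ± 85.1 (SD, n = 4). They were followed by the ATP synthase subunits Atp5a1, at 717 ± 33.6 RPKM, and Atp5b, at 681 ± 34.4 RPKM, with Atp5a1 above Atp5b in each Control library. The widespread forms Cox8a and Cox6a1 stood near the other end of the order, at 31.2 ± 2.11 and 25.8 ± 2.63 RPKM. Only Atp5l, at 16.0 ± 0.794 RPKM, Cox4i2, at 1.87 ± 0.301 RPKM, and Cox6b2, at 0.495 ± 0.291 RPKM, were lower. The gene length sums all annotated exons, with 360 bases for Cox8b, 4237 for Atp5b and 6443 for Atp5l. It can exceed that of the transcripts present, so the order of genes and of complexes per length is uncertain. Without division by length Atp5b and Atp5a1 were the highest in Control, at means of 2885 and 2248 CPM. Read pairs that align to more than 1 place are not counted by the counter's default, so levels of genes with close copies, among them Atp5l, Atp5k, Uqcrh and Cox5b with Cox5b-ps, are uncertain. Summed over the members, complex III stood at 1877 ± 76.8 RPKM in Control (SD, n = 4), 1486 ± 160.2 RPKM in Unloading (n = 2) and 1202 ± 24.1 RPKM in Reloading (n = 3). The sums were 4407 ± 142, 3418 ± 341 and 2725 ± 89.7 RPKM for complex IV and 3744 ± 159, 3024 ± 253 and 2508 ± 53.5 RPKM for complex V in the same groups. The step from Unloading to Reloading rests on TMM scaling. As shares of all read pairs in genes, complex III held 0.176% to 0.200% in Unloading and 0.178% to 0.181% in Reloading. Complex IV held 0.266% to 0.300% and 0.258% to 0.275%, and complex V 0.724% to 0.800% and 0.750% to 0.762%. These shares overlapped, and all lay below those of Control.

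Setting Unloading against Control asks how these genes stand in muscle that carries no load. After 10 days of unloading 29 of the 42 genes were lower at an adjusted p under 0.05 in edgeR's quasi-likelihood test, and all 42 had a log2 fold change below 0, whereas 5.50% of all tested genes were lower and 4.40% higher. The 29 comprised 7 of 8 in complex III, 11 of 17 in complex IV and 11 of 17 in complex V. The median log2 fold change over the 42 genes was -0.34, against 0.00 over all tested genes, and it was close to this value in each complex, at -0.34 in complex III, -0.34 in complex IV and -0.35 in complex V. The CPM of both Unloading libraries lay below those of all 4 Control libraries in 36 of the 42 genes, as they did in 16.6% of all tested genes, with 16.4% above. The largest decrease among genes without a copy-like name was that of Cox7a1, the muscle form of subunit VIIa, at -0.71 on the log2 scale. The number of calls rests on Unloading 1: without that library 1 gene (Cox7a1) was called lower, although 41 of the 42 values were below 0, and the median was -0.25, while without Unloading 2 there were 30 calls and the median was -0.45. Of all genes tested in those fits, 0.361% were lower without Unloading 1 and 4.26% without Unloading 2, so that calls were lost over all genes as well without Unloading 1.

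The comparison of Reloading with Unloading follows the return of load. With TMM scaling 29 of the 42 genes were lower 1 day after reloading, but with library totals only 4 were (Atp5l, Atp5o, Cox6c and Uqcrh), a share close to that of all genes under the same scaling, of which 7.34% were lower and 35.4% higher. The 2 genes that were higher, Cox6a1 and Cox8a, were so under both scalings, and Cox5b-ps was higher under library totals only. With TMM 19.0% of all tested genes were lower and 18.5% higher. The median log2 fold change was -0.28 with TMM, against 0.03 over all tested genes, and -0.03 with library totals, against 0.27 over all tested genes. By complex, 5 of 8 genes in complex III, 10 of 17 in complex IV and 14 of 17 in complex V were lower with TMM, and the medians were -0.36, -0.27 and -0.27 (-0.11, -0.02 and -0.02 with library totals). In CPM after TMM scaling all 3 Reloading libraries lay below both Unloading libraries in 31 genes and above them in 3, beside 29.0% and 31.0% of all tested genes. These counts depend on that scaling. Without Unloading 2 the number of genes called lower was 15, and without Unloading 1 it was 33, with 13.2% and 13.3% of all tested genes lower.

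The comparison of Reloading with Control sets never unloaded muscle against muscle that had been unloaded and then loaded again. In Reloading 38 of the 42 genes were lower and 2, Cox6a1 and Cox8a, were higher, while 21.3% of all tested genes were lower and 22.1% higher. The 38 were all 8 genes of complex III, all 17 of complex V and 13 of 17 in complex IV, where Cox4i2 and Cox6b2, both with few reads, were not called. The median log2 fold change was -0.63, against 0.01 over all tested genes, and -0.39, against 0.25, with library totals, under which 35 genes were lower and the same 2 higher, beside 9.99% and 40.6% of all tested genes. Atp5d, Cox5b-ps and Cox7a2l were the genes that were no longer called lower with library totals. All 3 Reloading libraries lay below all 4 Control libraries in the 38 genes and above them in 2, beside 22.7% and 24.2% of all tested genes, and the numbers of calls were the same without any 1 library.

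**Figure D1:**
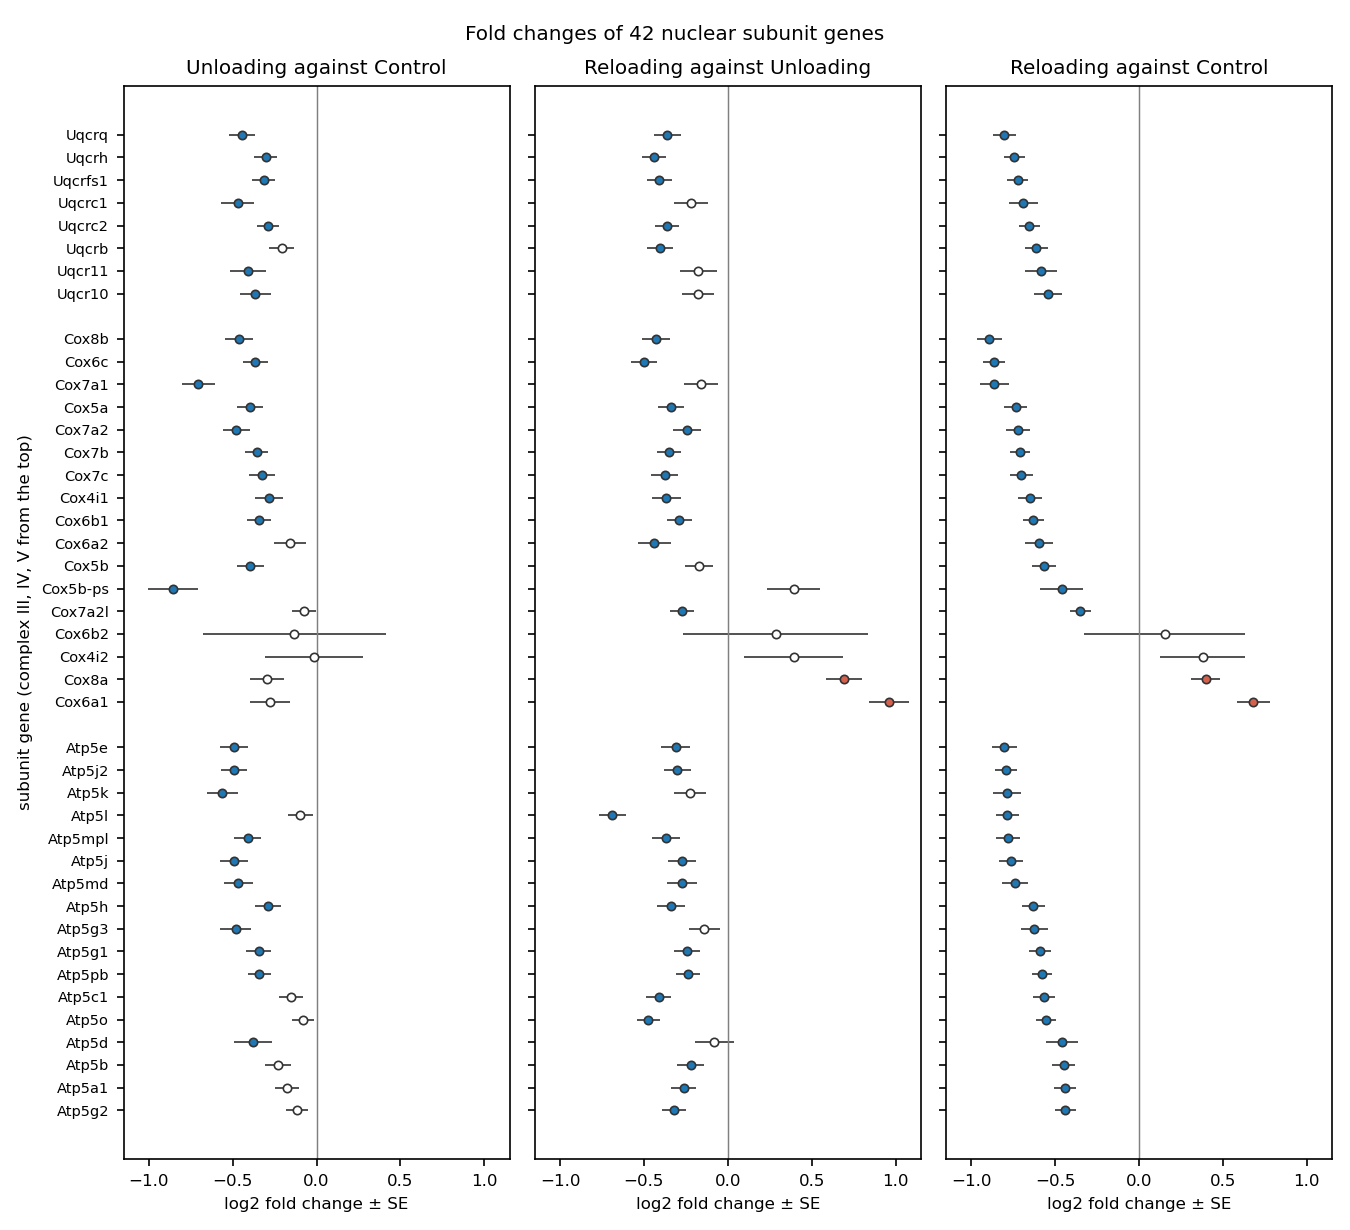
Log2 fold change (x axis) with its standard error for each of the 42 genes (y axis, grouped by complex) in the 3 comparisons. Filled points passed an adjusted p of 0.05 (blue lower, red higher) and open points did not; 29, 29 and 38 genes are blue, and Cox6a1 and Cox8a are the red points in both comparisons of Reloading, which rest on TMM scaling (4 blue points in the middle panel with library totals).

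**Figure D2:**
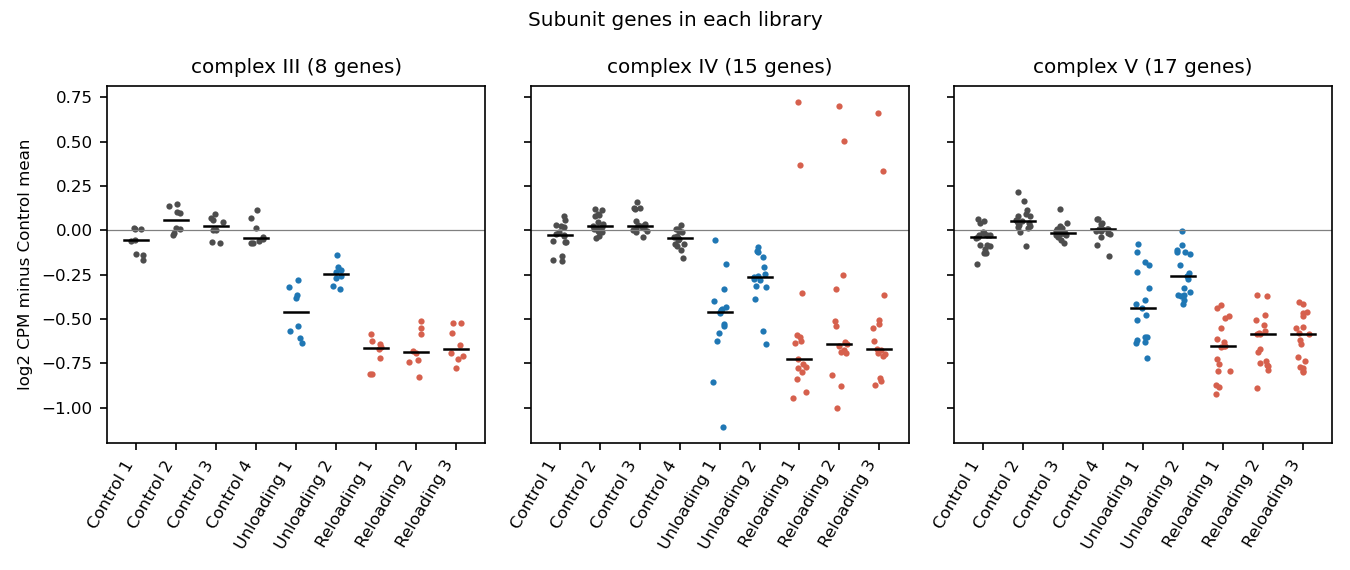
Each point is 1 gene in 1 library (x axis), as log2 CPM minus that gene's mean over the 4 Control libraries (y axis), with a line at the median; Cox4i2 and Cox6b2, which have few reads, are left out. The medians of Unloading 1, at -0.46, -0.46 and -0.44 in complexes III, IV and V, lie below those of Unloading 2, at -0.25, -0.26 and -0.26, and the Reloading libraries lie between -0.58 and -0.73.

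Markers of muscle fibres, macrophages and vessels also differed between the groups. With TMM scaling, in Reloading against Unloading 8 of 9 macrophage genes, 5 of 6 smooth muscle genes and 5 of 6 endothelial genes were higher, beside 18.5% of all tested genes. Of the muscle lists, 4 of 5 general, 3 of 8 slow-fibre and 8 of 10 fast-fibre genes were lower there, beside 19.0% of all tested genes. Myh4, Mylpf and Tnnt3 stand in both the general and the fast-fibre list. The median log2 fold changes of these lists were -0.60, -0.47 and -0.64 in the same order, against -0.28 over the 42 subunit genes. In Unloading against Control Acta1 alone of the 5 general muscle genes was lower, at -0.68 on the log2 scale, and 4 were not called. In that comparison 2 of 8 slow-fibre genes were lower, Myl3 at -1.23 and Myl2 at -1.07. Of the 10 fast-fibre genes Myh2, the myosin of oxidative fast fibres, at -0.93, and Tnnc2, at -0.53, were lower. Actn3, at 0.61, and Atp2a1, at 0.33, were higher. Of the 6 endothelial genes Kdr, at -1.04, and Vwf, at -0.42, were lower in that comparison, in which 5.50% of all tested genes were lower and 4.40% higher. The summed CPM of the macrophage list was 82.7 to 101 in Control, 86.1 to 87.6 in Unloading and 167 to 189 in Reloading, that of the endothelial list 146 to 167, 140 to 141 and 248 to 304, and that of the smooth muscle list 119.9 to 146, 108 to 109 and 177 to 199. The fast-fibre list stood at 161573 to 176095, 185524 to 187454 and 122980 to 136200 CPM and the slow-fibre list at 838 to 1388, 717 to 1167 and 614 to 698 CPM in the same order. The erythrocyte list had overlapping sums in the 3 groups, with 52.0 to 173, 67.3 to 119.9 and 57.3 to 139 CPM. None of these lists had a gene at 0 in all libraries. Pericyte genes went both ways, with 3 of 6 higher and 2 lower in Reloading against Unloading, beside 18.5% and 19.0% of all tested genes. There 1 of 4 adipocyte genes was higher, which is near the share of all tested genes. The part of these shifts in the values of the subunit genes was not tested.

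In complex III the decrease ran through the core proteins Uqcrc1 and Uqcrc2, the Rieske iron-sulfur protein Uqcrfs1, which hands electrons to cytochrome c1, and the small subunits around them. The 3 core and Rieske genes were lower in Unloading than in Control, with log2 fold changes of -0.47 to -0.29, and 4 of the 5 small subunits were. Uqcrc1 had 560.5, 685, 642 and 587 CPM in Control, 397 and 495 CPM in Unloading and 396, 381 and 373 CPM in Reloading. Its Unloading values lay below every Control value, and the log2 difference was -0.47 ± 0.10 (SE, adjusted p = 0.00772). Between Unloading and Reloading the difference was -0.22 ± 0.10 (SE, adjusted p = 0.0988), which did not pass the test. It passed with the block on description numbers (adjusted p = 0.0173). Of these groups only Unloading 2 and Reloading 1 share such a number, and the correlation of their deviations was 0.017, so no pairing backs that call. Uqcrb, a small subunit near the quinone site, had the smallest decrease of the complex in Unloading, with 256, 268, 254 and 288 CPM in Control, 219 and 242 CPM in Unloading and 167, 177 and 178 CPM in Reloading. Its difference from Control was -0.21 ± 0.08 (SE, adjusted p = 0.0968) in Unloading, where the groups did not overlap but the test was not passed, and it was lower in Reloading than in Unloading, at -0.41 ± 0.08 (SE, adjusted p = 0.00103) with TMM scaling only.

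Uqcrh, the hinge protein that lies against cytochrome c1, had the largest decrease of complex III between Unloading and Reloading, at -0.44 ± 0.07 (SE, adjusted p = 0.000287), and was among the 4 genes also called lower with library totals. It was measured at 265, 259, 264 and 267 CPM in Control, 203 and 224 CPM in Unloading and 150.4, 159 and 164 CPM in Reloading, with no overlap between any of the groups. Uqcrq, a small subunit bound to cytochrome b, was furthest from Control after reloading, at -0.80 ± 0.07 (SE, adjusted p = 3.97e-07). Its values were 220.2, 221, 226 and 208 CPM in Control, 147 and 174 CPM in Unloading and 125, 124 and 128 CPM in Reloading, so that each group lay apart from the next after TMM scaling. Between Reloading and Unloading the log2 fold change of Uqcrq was -0.36 with TMM (adjusted p = 0.00268). With library totals it was -0.11 and not called (adjusted p = 0.277). Uqcr10 and Uqcr11, the smallest subunits of the complex, were called lower in Unloading but not between Unloading and Reloading. The block on description numbers called both there (adjusted p = 0.0261 and 0.0288), with the limit given above for Uqcrc1. Uqcr10 had 205, 242, 236 and 219 CPM in Control, 155 and 195 CPM in Unloading and 150.1, 158 and 157 CPM in Reloading, and Uqcr11 had 159, 197, 191 and 172 CPM in Control, 117 and 154 CPM in Unloading and 113, 122 and 125 CPM in Reloading. The groups of Reloading and Unloading overlapped in both genes, and the log2 fold changes between them were -0.18 ± 0.10 (SE, adjusted p = 0.164) for Uqcr10 and -0.18 ± 0.11 (SE, adjusted p = 0.23) for Uqcr11, whereas against Control Uqcr10 was lower, at -0.36 ± 0.09 (SE, adjusted p = 0.0237) in Unloading and -0.54 ± 0.08 (SE, adjusted p = 8.8e-05) in Reloading. Uqcr10 had the smallest decrease of complex III in that last comparison.

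In complex V more of the small membrane subunits than of the catalytic head were called lower in Unloading. Of the 5 genes of the F1 head, where ATP is made, only Atp5d and Atp5e were lower in Unloading, with a median log2 fold change of -0.23 over the 5 genes. Atp5a1, Atp5b and Atp5c1, the alpha, beta and gamma subunits, had -0.18, -0.23 and -0.15 and did not pass the test, with no overlap between the groups. Of the small subunits of the membrane part 4 of 5 were lower, with a median of -0.47. Of the peripheral stalk, which holds the head still, 3 of 4 genes were lower with a median of -0.32, and of the 3 c-ring genes 2 were lower with a median of -0.35. In Reloading against Control all 17 were lower, with medians of -0.46 in the head, -0.59 in the c-ring genes, -0.61 in the stalk and -0.78 in the small membrane subunits. These groups of genes follow the build of the enzyme, and the difference between them was not tested.

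Atp5k (subunit e), which takes part in joining ATP synthase into dimers, had the largest decrease of complex V in Unloading, at -0.56 ± 0.09 (SE, adjusted p = 0.0029). It stood at 252, 298, 278 and 274 CPM in Control, 167 and 206 CPM in Unloading and 163, 149 and 167 CPM in Reloading, and Reloading overlapped Unloading. Atp5e, the epsilon subunit of the head, was furthest from Control after reloading, at -0.80 ± 0.07 (SE, adjusted p = 6.56e-07). Atp5e was measured at 372, 412, 404 and 398 CPM in Control, 258 and 306 CPM in Unloading and 215, 236 and 232 CPM in Reloading, with no overlap between groups after TMM scaling. Between Reloading and Unloading its log2 fold change was -0.31 with TMM (adjusted p = 0.00935). With library totals it was -0.06 and not called (adjusted p = 0.561). Atp5d, the delta subunit, had the smallest difference of complex V between Reloading and Unloading, -0.08 ± 0.12 (SE, adjusted p = 0.62). Its CPM were 231, 307, 287 and 239 CPM in Control, 186 and 223 CPM in Unloading and 187, 205 and 189 CPM in Reloading, so that Reloading and Unloading overlapped and both lay below Control.

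Some genes of complex V showed the opposite order, with little difference in Unloading and a larger one after reloading. Atp5o, the OSCP subunit that ties the stalk to the head, was at 221, 235, 222 and 227 CPM in Control, 214 and 213 CPM in Unloading and 154, 153 and 155 CPM in Reloading. It differed from Control by -0.08 ± 0.06 (SE, adjusted p = 0.467) in Unloading and was lower in Reloading than in Unloading under both scalings, at -0.47 ± 0.07 (SE, adjusted p = 7.98e-05) with TMM. Atp5l (subunit g), another subunit of the dimer contact, had 107, 96.9, 101 and 108 CPM in Control, 90.0 and 103 CPM in Unloading and 59.5, 61.0 and 59.3 CPM in Reloading. The values of Unloading and Control overlapped, with -0.10 ± 0.08 (SE, adjusted p = 0.464), and those of Reloading lay below both, with -0.69 ± 0.08 (SE, adjusted p = 1.45e-05) against Unloading, the largest decrease of the 42 genes in that comparison and one that was called under both scalings. Both comparisons with Unloading rest on the same 2 libraries.

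The 3 c-ring genes make the same mature protein and differ in the part that guides it into mitochondria. Atp5g1 had 359, 374, 357 and 362 CPM in Control, 268 and 304 CPM in Unloading and 230.0, 251 and 243 CPM in Reloading, and Atp5g3 had 463, 566, 520.2 and 478 CPM in Control, 333 and 392 CPM in Unloading and 322, 337 and 329 CPM in Reloading. Without division by length Atp5g2 was lower throughout, at 116, 121, 119 and 117 CPM in Control, 109 and 109 CPM in Unloading and 84.4, 91.3 and 85.9 CPM in Reloading. Per length, Atp5g2 made up 48.6% to 49.4% of its pair with Atp5g1 across the Control libraries. That share was 54.3% and 51.4% after unloading, and 51.8%, 51.6% and 50.9% after reloading. Of the pair with Atp5g3 it made up at most 29.8% per length. These shares carry the uncertainty of gene length given above. In Unloading Atp5g1 and Atp5g3 were lower than in Control, with -0.35 ± 0.07 (SE, adjusted p = 0.00896) and -0.48 ± 0.09 (SE, adjusted p = 0.00484), and Atp5g2 had -0.12 ± 0.07 (SE, adjusted p = 0.299). Atp5g2 had the smallest decrease of complex V in Reloading against Control, -0.44 ± 0.06 (SE, adjusted p = 3.61e-05). The log2 ratio of Atp5g3 to Atp5g2 reads was 2.10 ± 0.105 in Control (SD, n = 4), 1.73 ± 0.159 in Unloading (n = 2) and 1.92 ± 0.029 in Reloading (n = 3), and that of Atp5g1 to Atp5g2 was 1.62 ± 0.020, 1.39 ± 0.120 and 1.47 ± 0.030. Neither Unloading nor Reloading overlapped Control in these ratios. The exact two-sided permutation test over libraries gave p = 0.0667 for both ratios in Unloading against Control, which is the smallest value that 4 against 2 libraries allow, and p = 0.0286 for Atp5g1/Atp5g2 and 0.0571 for Atp5g3/Atp5g2 in Reloading against Control, where 0.0286 is the smallest. Over the 21 ratio tests (7 pairs, 3 comparisons) 0 had an adjusted p under 0.05, with 0.15 as the lowest, 4 were at an unadjusted p under 0.05, and comparisons with Unloading could not reach 0.05 at all.

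In complex IV the subunits outside the isoform pairs were lower in both comparisons with Control. Cox5a, Cox5b, Cox6c, Cox7b and Cox7c had log2 fold changes of -0.40 to -0.33 in Unloading and -0.87 to -0.57 in Reloading, and all 5 were called in both. Cox6c, a small subunit in the membrane, had 401, 374, 383 and 384 CPM in Control, 279.6 and 319 CPM in Unloading and 205, 219 and 211 CPM in Reloading. The groups did not overlap, and Cox6c had the largest decrease of complex IV between Unloading and Reloading, -0.50 ± 0.08 (SE, adjusted p = 0.000141), which was called under both scalings. Cox5b-ps had 16.8, 20.5, 21.1 and 17.5 CPM in Control, 8.76 and 12.1 CPM in Unloading and 12.6, 15.8 and 13.1 CPM in Reloading and the lowest log2 fold change of all 42 genes in Unloading, -0.85 ± 0.15 (SE, adjusted p = 0.00355). It covers 390 bases on chromosome 13 (21501029 to 21501418, minus strand, GRCm38), and its reads cannot be separated with certainty from those of Cox5b. Cox7a2l, a relative of subunit VIIa that is found in supercomplexes, had -0.08 ± 0.07 (SE, adjusted p = 0.534) in Unloading and was lower in Reloading than in Control, at -0.35 ± 0.06 (SE, adjusted p = 0.000371), with TMM scaling only.

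The 2 genes that were higher in Reloading are the widespread forms of subunits whose muscle forms were lower. Cox6a1 (ENSMUSG00000041697, chromosome 5, 115345642 to 115348981, minus strand, GRCm38) had 16.0, 19.6, 19.7 and 17.2 CPM in Control, 13.2 and 16.6 CPM in Unloading and 29.8, 29.4 and 28.5 CPM in Reloading. All Reloading values lay above all others, and those of Unloading and Control overlapped. Cox6a1 was higher than in Unloading by 0.96 ± 0.12 (SE, adjusted p = 2.71e-05) and higher than in Control by 0.68 ± 0.10 (SE, adjusted p = 5.93e-05). Its partner Cox6a2 (ENSMUSG00000030785, chromosome 7, 128205435 to 128206387, minus strand) had 613, 683, 698 and 576 CPM in Control, 561 and 592 CPM in Unloading and 375, 449 and 451 CPM in Reloading. Here Reloading lay below all other libraries, with -0.44 ± 0.10 (SE, adjusted p = 0.00267) against Unloading, which was not called with library totals, and -0.60 ± 0.08 (SE, adjusted p = 4.51e-05) against Control. In Unloading against Control neither gene passed the test, with -0.28 ± 0.12 (SE, adjusted p = 0.148) for Cox6a1 and -0.16 ± 0.09 (SE, adjusted p = 0.316) for Cox6a2.

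Cox8a (ENSMUSG00000035885, chromosome 19, 7215153 to 7217616, minus strand) and Cox8b (ENSMUSG00000025488, chromosome 7, 140898945 to 140900446, minus strand) encode the widespread and the muscle form of subunit VIII. Cox8a had 18.5, 19.6, 21.1 and 18.2 CPM in Control, 15.3 and 16.2 CPM in Unloading and 24.9, 27.3 and 24.3 CPM in Reloading, with Reloading above and Unloading below all Control libraries. Its log2 fold change was -0.30 ± 0.10 (SE, adjusted p = 0.0778) in Unloading, which did not pass the test, and it was higher in Reloading than in Unloading by 0.69 ± 0.10 (SE, adjusted p = 0.000133) and than in Control by 0.40 ± 0.09 (SE, adjusted p = 0.00176). Cox8b had 388, 388, 406 and 406 CPM in Control, 258 and 318 CPM in Unloading and 206, 216 and 220.0 CPM in Reloading, and the groups did not overlap. Against Control it was lower in Unloading, at -0.46 ± 0.08 (SE, adjusted p = 0.00377), and in Reloading, at -0.89 ± 0.07 (SE, adjusted p = 2.71e-07), the largest decrease of complex IV in that comparison. Between Reloading and Unloading its log2 fold change was -0.43 ± 0.09 (SE, adjusted p = 0.00116) with TMM and -0.18 with library totals, where it was not called.

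A ratio of both forms within a library does not depend on the scaling. The log2 ratio of Cox6a2 to Cox6a1 reads was 5.14 ± 0.079 in Control (SD, n = 4), 5.28 ± 0.175 in Unloading (n = 2) and 3.85 ± 0.178 in Reloading (n = 3), and that of Cox8b to Cox8a was 4.36 ± 0.093, 4.18 ± 0.161 and 3.07 ± 0.1003. In Reloading the ratio was 0.409 times that of Control for the Cox6a pair and 0.408 times for the Cox8 pair. Per length, Cox6a1 made up 2.66% ± 0.142 of the pair in Control, 2.44% ± 0.290 in Unloading and 6.30% ± 0.746 in Reloading, and Cox8a made up 2.75% ± 0.173, 3.11% ± 0.334 and 6.49% ± 0.418 (SD, same n). The muscle forms thus stayed the main form in every library, with at least 92.8% of the Cox6a pair and 93.1% of the Cox8 pair. No Reloading ratio overlapped a Control or Unloading ratio in either pair. The exact permutation test gave p = 0.0286 for Reloading against Control in both pairs, the smallest value that 3 against 4 libraries allow, with an adjusted p of 0.15, and p = 0.1 against Unloading, which is again the smallest possible. The macrophage, endothelial and smooth muscle lists had their highest sums in the same libraries, as given above, and which cells held the Cox6a1 and Cox8a transcripts was not tested.

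**Figure D3:**
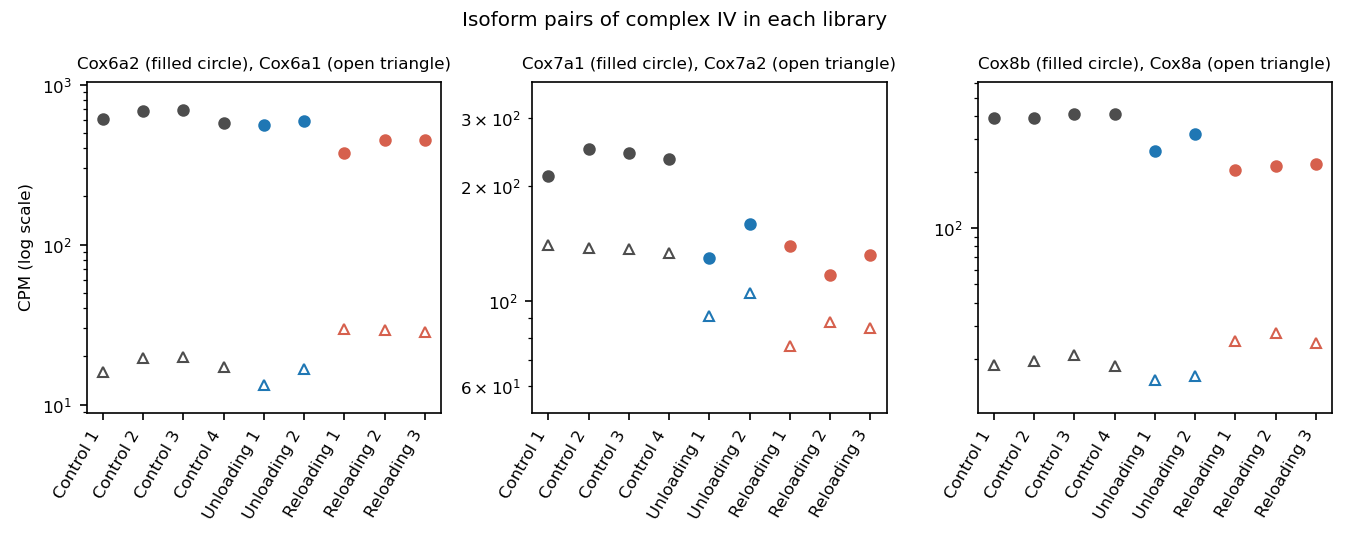
CPM on a log scale (y axis) in each library (x axis) for the muscle form (filled circles) and the widespread form (open triangles) of 3 complex IV subunits; grey is Control, blue Unloading and red Reloading. In Reloading Cox6a1 (28.5 to 29.8 CPM) and Cox8a (24.3 to 27.3 CPM) lie above every other library while Cox6a2 and Cox8b lie below, and Cox7a1 and Cox7a2 lie below Control together.

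The promoters of both genes that were higher and of the muscle form Cox8b are shown because their transcripts went opposite ways on reloading. Each is the 250 bases before the RefSeq gene start on the gene's strand, 5′ to 3′, in build GRCm38.p6, at chr5:115348959-115349208 for Cox6a1, chr19:7217617-7217866 for Cox8a and chr7:140900447-140900696 for Cox8b. Capitals mark matches to the letters GCGCATGC, the core of the site for the mitochondrial regulator NRF1, on either strand.
Cox6a1: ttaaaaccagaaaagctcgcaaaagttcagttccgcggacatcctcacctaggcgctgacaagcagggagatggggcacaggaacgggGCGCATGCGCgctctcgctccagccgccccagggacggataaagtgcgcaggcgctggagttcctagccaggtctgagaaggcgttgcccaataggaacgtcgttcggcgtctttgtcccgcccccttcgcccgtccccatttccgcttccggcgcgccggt
Cox8a: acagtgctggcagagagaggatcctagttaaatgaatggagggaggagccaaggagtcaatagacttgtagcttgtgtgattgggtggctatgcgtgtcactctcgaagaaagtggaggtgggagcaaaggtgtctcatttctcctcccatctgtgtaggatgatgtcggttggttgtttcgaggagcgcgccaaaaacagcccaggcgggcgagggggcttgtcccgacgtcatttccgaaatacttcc
Cox8b: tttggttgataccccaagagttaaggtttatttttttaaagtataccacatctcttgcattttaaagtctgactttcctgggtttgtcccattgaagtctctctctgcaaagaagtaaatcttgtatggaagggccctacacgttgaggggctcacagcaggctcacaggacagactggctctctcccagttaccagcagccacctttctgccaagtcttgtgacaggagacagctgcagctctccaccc
The Cox6a1 stretch holds the core once on each strand, and these matches overlap. In the other stretches there was no match to these letters or to CCGGAAGT (ETS factors), AAGATGGC (YY1) or AAGGTCA (estrogen-related receptors). In windows of 300 bases, which add the 50 bases after the start, RefSeq promoters were found for 32 of the 42 genes, and those of Uqcrb, Uqcrc2, Uqcrq, Cox4i1, Cox4i2, Cox5b-ps, Cox6a2, Cox6c, Atp5a1 and Atp5mpl are named only. Of the 32 genes 6 held the NRF1 core (18.8%, against 3.05% of all 27025 genes), namely Uqcr11, Uqcrc1, Cox6a1, Atp5g2, Atp5k and Atp5l. The ETS letters were found in 4 genes (12.5% against 4.31%), Cox8a among them, the YY1 letters in 3 (9.38% against 3.19%) and the receptor letters in 4 (12.5% against 5.38%). Cox6a1, the gene with the largest increase, and Atp5l, the gene with the largest decrease between Unloading and Reloading, both held the NRF1 core. A match of letters is a description of the sequence and does not show that a factor binds there.

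The pair of subunit VIIa went another way, with both forms lower in Unloading. Cox7a1 had 212, 249, 243 and 235 CPM in Control, 129 and 158 CPM in Unloading and 139, 117 and 132 CPM in Reloading, and Cox7a2 had 139.6, 138, 137 and 133 CPM in Control, 91.6 and 105 CPM in Unloading and 76.4, 87.9 and 84.8 CPM in Reloading. Unloading lay below Control in both, with -0.71 ± 0.10 (SE, adjusted p = 0.000837) for Cox7a1 and -0.48 ± 0.08 (SE, adjusted p = 0.00275) for Cox7a2. In Reloading against Control the values were -0.86 ± 0.09 (SE, adjusted p = 1.76e-06) and -0.72 ± 0.07 (SE, adjusted p = 1.44e-06). The log2 ratio of Cox7a1 to Cox7a2 reads was 0.78 ± 0.117 in Control, 0.55 ± 0.071 in Unloading and 0.64 ± 0.224 in Reloading, without overlap between Unloading and Control (exact permutation p = 0.0667, the smallest possible, adjusted p = 0.175). Per length Cox7a2 was 24.9% ± 1.55 of the pair in Control, 27.9% ± 0.985 in Unloading and 26.8% ± 3.04 in Reloading.

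The remaining pairs were made up almost wholly of one form. Cox4i1, the widespread form of the subunit through which ATP regulates the enzyme, had 466, 515, 499 and 469.8 CPM in Control, 362 and 439 CPM in Unloading and 316, 309.7 and 306 CPM in Reloading, and was lower than in Control at -0.28 ± 0.08 (SE, adjusted p = 0.0399) in Unloading and -0.65 ± 0.07 (SE, adjusted p = 5.06e-06) in Reloading. Cox4i2, its form in lung and hypoxic cells, had 10 to 34 read pairs per library, with 1.13, 1.66, 1.57 and 1.54 CPM in Control, 1.42 and 1.53 CPM in Unloading and 2.10, 2.46 and 1.32 CPM in Reloading. Its log2 fold changes were -0.01 ± 0.29 (SE, adjusted p = 0.986) in Unloading against Control, the highest of complex IV there, and 0.38 ± 0.26 (SE, adjusted p = 0.249) in Reloading against Control. The log2 ratio of Cox4i2 to Cox4i1 reads was -8.34 ± 0.190 in Control, -8.05 ± 0.131 in Unloading and -7.33 ± 0.441 in Reloading, with no overlap between Reloading and Control (exact permutation p = 0.0286, adjusted p = 0.15), and Cox4i2 was 0.590% ± 0.078, 0.724% ± 0.061 and 1.22% ± 0.351 of the pair per length. Cox6b1 had 305, 307, 302 and 293 CPM in Control, 222 and 255 CPM in Unloading and 194, 195 and 196 CPM in Reloading, and was lower than in Control at -0.34 ± 0.07 (SE, adjusted p = 0.0083) in Unloading and -0.63 ± 0.06 (SE, adjusted p = 1.88e-06) in Reloading. Cox6b2, known from testis, had 3 to 10 read pairs per library, with 0.789, 0.332, 0.214 and 0.858 CPM in Control, 0.524 and 0.437 CPM in Unloading and 0.725, 0.362 and 0.662 CPM in Reloading, and at this depth no difference between groups was detectable.

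**Figure D4:**
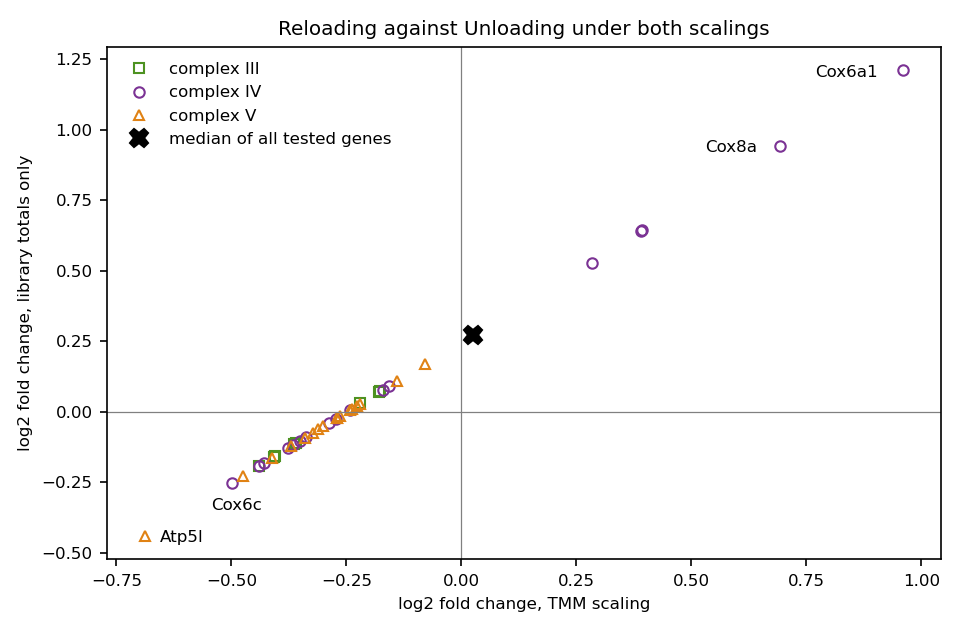
Log2 fold change of Reloading against Unloading with TMM scaling (x axis) and with library totals only (y axis) for each of the 42 genes, marked by complex, and for the median of all tested genes (cross, at 0.03 and 0.27). Most members lie close to 0 on the y axis, where 25 of the 42 are below 0, Cox6a1 and Cox8a lie above the cross on both axes, and Atp5l and Cox6c are the lowest on both.

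The nuclear subunits work beside proteins that the naming rule did not take. Cyc1 (cytochrome c1 of complex III), Cycs (cytochrome c) and Ndufa4, which associates with complex IV, were all lower in Unloading than in Control, with -0.46 ± 0.10 (SE, adjusted p = 0.0126), -0.40 ± 0.12 (SE, adjusted p = 0.0421) and -0.27 ± 0.07 (SE, adjusted p = 0.0236), and in Reloading than in Control, with -0.56 ± 0.09 (SE, adjusted p = 0.000132), -0.41 ± 0.10 (SE, adjusted p = 0.00465) and -0.74 ± 0.06 (SE, adjusted p = 3.13e-07). Beside them 5.50% and 21.3% of all tested genes were lower in these comparisons. With library totals Cycs was no longer called in Reloading against Control, at -0.17 (adjusted p = 0.162). Between Reloading and Unloading Ndufa4 alone was called, with -0.47 ± 0.07 (SE, adjusted p = 0.000151). Without Unloading 1 the count of these genes in Unloading against Control was 0.

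The 6 subunits of complexes III to V that mitochondrial DNA encodes fell into separate patterns. mt-Cytb, the cytochrome b of complex III, had 18219.6, 18298, 17231 and 18987 CPM in Control, 17091 and 18732 CPM in Unloading and 10299, 10449.7 and 10408 CPM in Reloading, and mt-Co1, the catalytic subunit of complex IV, had 36573, 33024, 33390.3 and 38497 CPM in Control, 33609 and 35412 CPM in Unloading and 19615, 19522 and 19746 CPM in Reloading. In both, Unloading overlapped Control and Reloading lay far below, with -0.79 ± 0.07 (SE, adjusted p = 2.05e-06) for mt-Cytb and -0.81 ± 0.08 (SE, adjusted p = 3.45e-06) for mt-Co1 against Unloading, called under both scalings. The other 4 were lower in Unloading than in Control, with -0.74 ± 0.12 (SE, adjusted p = 0.00255) for mt-Co2, -0.76 ± 0.13 (SE, adjusted p = 0.00341) for mt-Co3, -0.46 ± 0.14 (SE, adjusted p = 0.0442) for mt-Atp6 and -0.37 ± 0.10 (SE, adjusted p = 0.0252) for mt-Atp8. Of these mt-Atp8 alone was called between Reloading and Unloading, with -0.39 ± 0.10 (SE, adjusted p = 0.00665), and not with library totals. All 6 were lower in Reloading against Control, at log2 values of -0.87 to -0.77. Of all tested genes 21.3% were lower there and 5.50% in Unloading against Control. Reads of mt-Co2, mt-Co3, mt-Atp6 and mt-Atp8 came to 81.9 to 272 CPM per gene, against 10299 to 38497 CPM for mt-Cytb and mt-Co1, and mouse nuclear DNA holds close copies of mitochondrial DNA, so the levels of these 4 genes are uncertain. The count of 4 in Unloading was 0 without Unloading 1 and 2 without Unloading 2 or without Control 3.

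**Figure D5:**
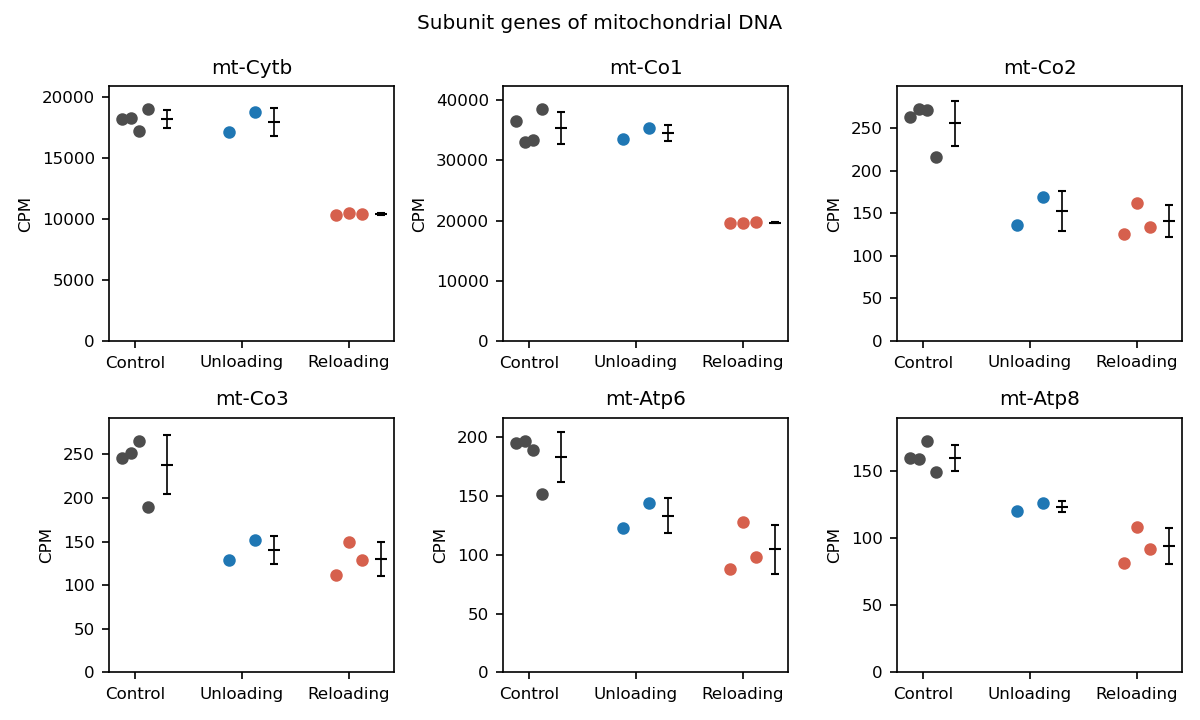
CPM (y axis, from 0) of the 6 subunit genes of mitochondrial DNA in each library by group, with the mean and SD beside the points (n = 4, 2 and 3). mt-Cytb and mt-Co1 are level between Control and Unloading and fall in Reloading to between 10299 and 10450 CPM and between 19522 and 19746 CPM, whereas the Unloading points of the other 4 genes lie below those of Control.

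Complex II, which has no subunit encoded by mitochondrial DNA, was lower as well. All 4 of its genes were lower in Unloading than in Control, with Sdhb, the iron-sulfur subunit, at -0.61 ± 0.07 (SE, adjusted p = 0.000233), and all 4 in Reloading against Control (3 with library totals), with -0.81 ± 0.06 (SE, adjusted p = 1.47e-07) for Sdhb. The shares of all tested genes that were lower were 5.50% and 21.3% in these comparisons, and 9.99% in the second with library totals. Between Reloading and Unloading 2 of 4 were lower with TMM, beside 19.0% of all tested genes, and 0 with library totals, beside 7.34%. Sdha was among the 2, with -0.33 ± 0.08 (SE, adjusted p = 0.00465). The count in Unloading against Control was 1 without Unloading 1, and that between Reloading and Unloading was 0 without Unloading 2 and 1 without any 1 of the Control or Reloading libraries.

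Some of the genes that help to assemble the complexes were lower as well. For complex IV 8 of the 20 tested assembly genes were lower in Unloading, beside 5.50% of all tested genes. The largest change was in Cox15, which makes heme A, at -0.58 ± 0.08 (SE, adjusted p = 0.000928). In Reloading against Control 14 of the 20 were lower and 3 higher, beside 21.3% and 22.1% of all tested genes. With library totals 8 were lower, beside 9.99% of all tested genes. Cox20, a chaperone of the Cox2 protein, had the largest decrease, -0.999 ± 0.32 (SE, adjusted p = 0.0197), while Sco1 and Cox19, which serve copper delivery, and Cox10, which acts before Cox15 in making heme A, were the 3 that were higher, with 0.34, 0.50 and 0.27. The same 3 genes were higher in Reloading than in Unloading, Sco1 by 0.65 ± 0.15 (SE, adjusted p = 0.00359), and 4 were lower with TMM scaling. Both counts with TMM lay near the 18.5% and 19.0% of all tested genes. With library totals 6 were higher and 0 lower, beside 35.4% and 7.34% of all tested genes. For complex III 2 of 6 assembly genes were lower in Unloading, with -0.68 ± 0.13 (SE, adjusted p = 0.00643) for Bcs1l, which inserts the Rieske protein, and 5 of 6 in Reloading against Control, with -0.44 ± 0.10 (SE, adjusted p = 0.00274) for Lyrm7 (0 of 6 with library totals). For complex V 2 of 5 were lower in Unloading, with -0.39 ± 0.09 (SE, adjusted p = 0.0154) for Atpaf1, and 5 of 5 in Reloading against Control, with -0.55 ± 0.08 (SE, adjusted p = 4.15e-05) for Fmc1 (1 of 5 with library totals). The shares of all tested genes beside the counts for complexes III and V are those given above for complex IV. Several of these counts rest on single libraries. In Unloading against Control the count for complex IV was 1 without Unloading 1, 4 without Unloading 2, Control 1, Control 2 or Control 4, and 5 without Control 3 or Reloading 2. For complex III it was 0 without Unloading 1 and 1 without Control 2, Control 3 or Reloading 2, and for complex V 0 without Unloading 1 and 1 without Control 2, Control 3 or Control 4. In Reloading against Control the count for complex III was 2 without Reloading 2 and 3 without Reloading 3. Between Reloading and Unloading the count of complex IV genes that were lower was 1 without Unloading 2, 1 gene of complex III was then higher, and 1 gene of complex V was lower without Unloading 1.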

How the data were processed

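RNA of whole gastrocnemius was powdered, extracted with Trizol, selected for poly-A and sequenced as TruSeq libraries. Reads were aligned by the authors to GRCm38.p6 with STAR 2.7.3a and deposited as unnormalized counts of read pairs per gene from featureCounts 2.0.3, counted without strand. The labels give paired-end reads, whereas the study's methods give single reads. The authors' comparison tables hold shrunken fold changes, p-values and mean signal, of which only gene symbols and gene types were used. The 42 genes and all gene lists were chosen with earlier results of these data known.

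Counts of the 9 libraries were fitted together in edgeR 4.0.16 (R 4.3.3) with 1 mean per group, TMM scaling and quasi-likelihood tests, after a filter on low counts (minimum count 10, minimum total 15), which kept 14851 of the 34376 genes with reads. The common biological coefficient of variation was 0.0927. P-values were adjusted by Benjamini-Hochberg over all tested genes, with a threshold of 0.05. Genes were named by rule as the lowest and highest log2 fold change of each complex in each comparison and the members of isoform pairs. Outside the members they were Cyc1, Cycs, Ndufa4, the 6 subunits of mitochondrial DNA and, per list of complex II or assembly genes, the gene with the largest change among those called. The cell type lists did not follow this rule. Cox5a and other genes given beside these, the 3 higher assembly genes and the muscle, fibre and endothelial genes, were chosen after their values were seen. CPM are counts scaled to 1000000, and RPKM further divide by the counter's gene length. Ratios of isoform counts, with 0.5 added to each, were compared by exact two-sided permutation tests over libraries. Read pairs in genes numbered 9252443 to 19612101 per library, and their number limits the precision of genes with few reads.

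Alternatives were DESeq2 1.42.0, other scalings and filters, robust estimation, leaving out libraries, and replicate blocks. Replicate numbers in the sample descriptions were taken to pair Reloading with Control, since the correlations of the deviations of same-numbered libraries were 0.361, 0.143 and 0.155, all over 0.1. Unlike-numbered libraries reached 0.106 and 0.117, and the highest value joins Control 2 and Reloading 1, which both held skin transcripts. These correlations therefore do not establish a pairing, and the block on description numbers serves as an alternative fit only. For Unloading the same-numbered values were 0.054 and 0.075 with Control and 0.017 with Reloading, so that no pairing of Unloading was seen. In Reloading against Control the blocked fit changed 0 of the calls of the 42 genes. The code was tested on simulated data with known changes.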

Additional observations from a re-analysis of the deposited data

Results flagged for a closer look

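In the 4 Control libraries 42 items were looked at for a sample that stands far from the others, and chance flags about 1 in 20, or 2.1 of them. The distance of the lowest Control library passed Dixon's 95% limit in 5 items. Control 4 was low in mt-Co2, with 216 CPM where the others of its group had 263 to 272 CPM, and in mt-Atp6, with 152 CPM where they had 189 to 197 CPM. Control 1 was low in the log2 ratio of Cox7a1 to Cox7a2, at 0.60 against 0.82 to 0.86, and in that of Cox4i2 to Cox4i1, at -8.62 against -8.28 to -8.21. Control 3 was low in the log2 ratio of Atp5g1 to Atp5g2, at 1.59 against 1.63 in each of the others.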

How the results depend on the processing

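The counts of members called lower were the same with DESeq2 in every comparison, and those of Reloading against Control were 38 in each leave-one-out fit. What the data limit most is Unloading, with 2 libraries that differ from each other, and the scaling of Reloading. With library totals 4 members were lower in Reloading against Unloading, and the medians of complexes III, IV and V were -0.11, -0.0249 and -0.0221, and -0.43, -0.39 and -0.38 in Reloading against Control. Log2 fold changes of Reloading against Unloading then turned positive for Atp5d (0.17), Atp5g1 (0.00587), Atp5g3 (0.11), Atp5k (0.0223), Cox7a1 (0.0907), Cox7a2 (0.00684), Uqcr10 (0.0708), Uqcr11 (0.0732), Uqcrc1 (0.0299), Cyc1 (0.14), Cycs (0.24), mt-Co2 (0.13) and mt-Co3 (0.14). The assembly genes called in that comparison were 3 higher for complex III, 6 higher and 0 lower for complex IV and 1 higher for complex V, with 0 lower for complex II, and against Control 0, 8 and 1 were lower for complexes III, IV and V. With library totals 35.4% of all tested genes were higher and 7.34% lower in Reloading against Unloading, and 9.99% were lower in Reloading against Control. The different library scaling is the only change in these fits.

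Without Control 2 and Reloading 1, the libraries with skin transcripts, the lower assembly genes of complexes III, IV and V in Unloading were 1, 4 and 1, those of complexes III and V in Reloading against Control 3 and 2, and complex II had 1 in Reloading against Unloading. The median of complex V in Reloading against Control was -0.56, Cox4i2 was 0.0401 in Unloading, Cox6b2 -0.18 in Reloading against Control, and the log2 ratio of Cox7a1 to Cox7a2 differed by -0.0242 between Reloading and Unloading. In Unloading against Control DESeq2 gave 5 and 1 lower assembly genes for complexes IV and V, and no filter gave 3 and 1, with Cox4i2 at 0.0233, mt-Co1 at 0.0017 and mt-Cytb at 0.0156. In Reloading against Unloading relative log expression size factors gave 1 lower assembly gene of complex V, and no filter, robust estimation and a fit without mitochondrial DNA genes each gave 1 for complex II. The cause of these differences was not tested.

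No pairing by the replicate numbers in the titles was seen, and a block on them gave 25, 26 and 38 lower members in Unloading against Control, Reloading against Unloading and Reloading against Control, with 3 higher in the second. In Unloading the title block gave 1, 3 and 0 lower assembly genes for complexes III, IV and V, 2 for complex II and 1 other subunit, with Cox6b2 at 0.16 and mt-Co1 at 0.00097, and between Reloading and Unloading 1 for complex II and Cycs at 0.0038. The block on description numbers gave 30, 32 and 38 lower members, gaining Atp5b in Unloading and Atp5k, Uqcr10, Uqcr11 and Uqcrc1 and losing Cox7a2l in Reloading against Unloading, 1 lower assembly gene of complex V in each of these comparisons, and Cox4i2 at 0.0198 in Unloading. No pairing of the Unloading libraries by these numbers was seen.

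Leaving out 1 library at a time gave 1 to 30 lower members in Unloading against Control and 15 to 33 in Reloading against Unloading. The medians of complexes III, IV and V ranged from -0.46 to -0.24, -0.46 to -0.26 and -0.44 to -0.25 in the first and from -0.43 to -0.29, -0.34 to -0.19 and -0.40 to -0.19 in the second. Lower genes in Unloading numbered 0 to 3, 1 to 7 and 0 to 2 for the assembly of complexes III, IV and V, 1 to 4 for complex II, 0 to 4 for mitochondrial DNA and 0 to 3 for the other subunits. Between Reloading and Unloading they numbered 1 to 4 and 0 to 1 for the assembly of complexes IV and V and 0 to 2 for complex II, with 0 to 1 higher for the assembly of complex III, of which 2 to 5 were lower against Control. Differences in log2 ratio ranged from -0.0030 to 0.17 for Atp5g1/Atp5g2 and from -0.0242 to 0.20 for Cox7a1/Cox7a2 in Reloading against Unloading, and from -0.0191 to 0.61 for Cox6b2/Cox6b1 in Unloading against Control. Reloading against Unloading ranged from -0.21 to 0.052 for Atp5d, -0.36 to 0.0241 for Uqcr11, -0.26 to 0.0481 for Cyc1, -0.21 to 0.21 for Cycs, -0.27 to 0.045 for mt-Co2 and -0.22 to 0.0104 for mt-Co3. Unloading against Control ranged from -0.10 to 0.0388 for Cox4i2, -0.44 to 0.22 for Cox6b2, -0.0751 to 0.00808 for mt-Co1 and -0.0906 to 0.046 for mt-Cytb, and Cox6b2 in Reloading against Control from -0.16 to 0.50. Where 1 Unloading library is left out, the other is assumed to vary like the rest.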
